A study of Mus musculus with 9 samples.

Results

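Messenger RNA of potassium channel genes was measured in mouse heart after treatment with oxaliplatin, a platinum drug used against cancer. The genes were all rows of the deposited expression table whose symbol starts with Kcn, which gave 34 of 13795 rows. They hold pore-forming and auxiliary channel subunits, and 1 row, Kcnq1ot1, that is a non-coding RNA. Heart samples came from C57BL/6 mice, 5 samples after oxaliplatin at 10 mg/kg and 4 after vehicle. They were collected after 8 weeks and sequenced where RNA integrity was above 8. Whether each sample is a separate animal is not in the labels. Genotype and strain were the same in both groups, and their age, sex and dosing schedule are not stated in the sources used here. The tissue is whole heart, so in every value below fewer cells of a type and less RNA per cell cannot be told apart. Levels are given as normalized counts, the name the authors' table carries for its value per gene and sample.

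Potassium channels end the action potential and hold the resting potential of heart muscle cells. In adult mouse ventricle the fast transient outward current, Ito, does most of the early repolarization and is carried by Kv4 pores with the auxiliary subunit KChIP2. The inward rectifier IK1 sets the resting potential through Kir2 pores, IKr is carried by the channel encoded by Kcnh2, and KATP channels open when ATP falls. Two-pore channels carry background current. The other Kcn genes encode slowly inactivating, acetylcholine-gated, calcium-activated and regulatory subunits, some of which are typical of vessels, atria or nerve.

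Of the 34 genes, 3 were higher and 6 lower with oxaliplatin in limma, at an adjusted p under 0.05, and 25 did not pass. Over all 13788 genes tested, 9.23% were higher and 5.03% lower, 14.3% in either direction. Of the members 17.6% were lower, 8.82% higher and 26.5% called in either direction. The auxiliary subunits Kcne4 and Kcnmb1 rose, and Kcnip2, Kcnd3, Kcnj2, Kcng2, Kcnn1 and Kcnv2 fell. The third higher gene was Kcne3. Every gene of the table reached at least 40.6 normalized counts in some sample, and Kcne3 did so in oxaliplatin samples alone, so its difference follows in part from which genes the table holds. The groups did not overlap for 10 members, 4 higher and 6 lower with oxaliplatin, or 29.4%, where 14.9% of all genes did not overlap, 8.99% higher and 5.93% lower. At an unadjusted p under 0.05 there were 17 of the 34 members, against 28.8% of all genes. The median log2 fold change was -0.23 over the members and -0.021 over all genes. Of the 34 members 20 had a negative value, against 52.3% of all genes. Besides Kcne3, Kcnab2, Kcne1l and Kcnh7 reached 40.6 in oxaliplatin samples alone, and Kcna1 and Kcna2 in vehicle samples alone. Of the 28 members that reached it in both groups 2 were higher, 6 were lower and 8 did not overlap. The member shares above still count Kcne3 as higher, and both Kcne3 and Kcnab2 as not overlapping. Shares over all genes that reached 40.6 in both groups were not computed, so these counts have no matching background.

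The 10 measured members of the 5 currents were set beside the 24 others. Within the currents 0 rose and 3 fell, 9 of 10 fold changes were negative, against 52.3% over all genes, and the median was -0.41. Outside them 3 were higher, Kcne3 among them, and 3 lower, with a median of 0.098. Over all genes tested 9.23% were higher and 5.03% lower. These splits are descriptions and were not tested against each other. After rescaling to equal non-mitochondrial totals 4 members were higher and 4 lower, and after quantile normalization 3 were higher and 8 lower. Of all genes 13.4% passed after that rescaling and 15.3% after quantile normalization. Higher genes made up 64.7% of all calls as deposited, 79.1% after that rescaling and 54.4% after quantile normalization.

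Samples differed in their atrial marker levels. A score over 8 atrial markers, such as the light chain gene Myl7, averages the centred log2 values of each marker. It was -4.58, 3.80, 1.22, 3.31 and -1.82 in oxaliplatin samples 1 to 5, and 2.93, -1.50, -2.78 and -0.59 in vehicle samples 1 to 4. The score exceeded 1 in oxaliplatin samples 2, 3 and 4 and in vehicle sample 1, and exceeded 2 in the same samples apart from oxaliplatin sample 3. Without the samples above 1, which leaves 2 oxaliplatin and 3 vehicle samples, 6 members were higher and 4 lower. Of all 13788 genes 1058 were higher and 611 lower in that fit, 12.1% in either direction. Without those above 2 the members numbered 6 and 6, and all genes 1110 and 486, or 11.6%. The summed level of the 9 cardiomyocyte markers overlapped between groups, at 1.07e+06 to 1.37e+06 normalized counts in oxaliplatin samples and 1.30e+06 to 1.61e+06 in vehicle samples. Their score did not overlap, at -0.26 to -0.031 in oxaliplatin samples and 0.046 to 0.33 in vehicle samples, and 1 of the 9 was called, lower. Since the score divides the samples as the groups do, the 2 cannot be told apart, and with it as a covariate 0 members and 5 of all genes passed. Fold changes in that fit were -0.16 for Kcnip2, -0.19 for Kcnn1 and -0.043 for Kcng2, against -0.85, -0.74 and -0.74 without the covariate. They were -0.96 for Kcnd3, -0.67 for Kcnj2, -1.58 for Kcnv2, 1.23 for Kcne4 and 1.59 for Kcnmb1, against -0.85, -0.46, -1.14, 1.40 and 1.71 without it. Standard errors of these members ran from 0.25 for Kcnj2 to 0.49 for Kcnmb1, against 0.13 and 0.25 without the covariate. For Kcnip2 the standard error was 0.29 against 0.19. Whether members differ in how far they moved was not tested. The score over 6 erythroid markers was -3.59 to 1.72 in oxaliplatin samples and 0.96 to 2.21 in vehicle samples. With it as a covariate Kcne4 and Kcnmb1 were higher and 0 members lower, while 775 of all genes passed. The fold changes of the lower members, which no longer passed, were -0.86 for Kcnip2, -1.06 for Kcnd3, -0.90 for Kcnn1, -1.08 for Kcnv2, -0.72 for Kcng2 and -0.31 for Kcnj2. Standard errors of these 6 were larger with the covariate, at 0.30 against 0.19 for Kcnip2. Totals were 29.4 M to 36.9 M normalized counts per sample, and mitochondrially encoded genes took 18.1% to 24.1%.

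**Figure D1:**
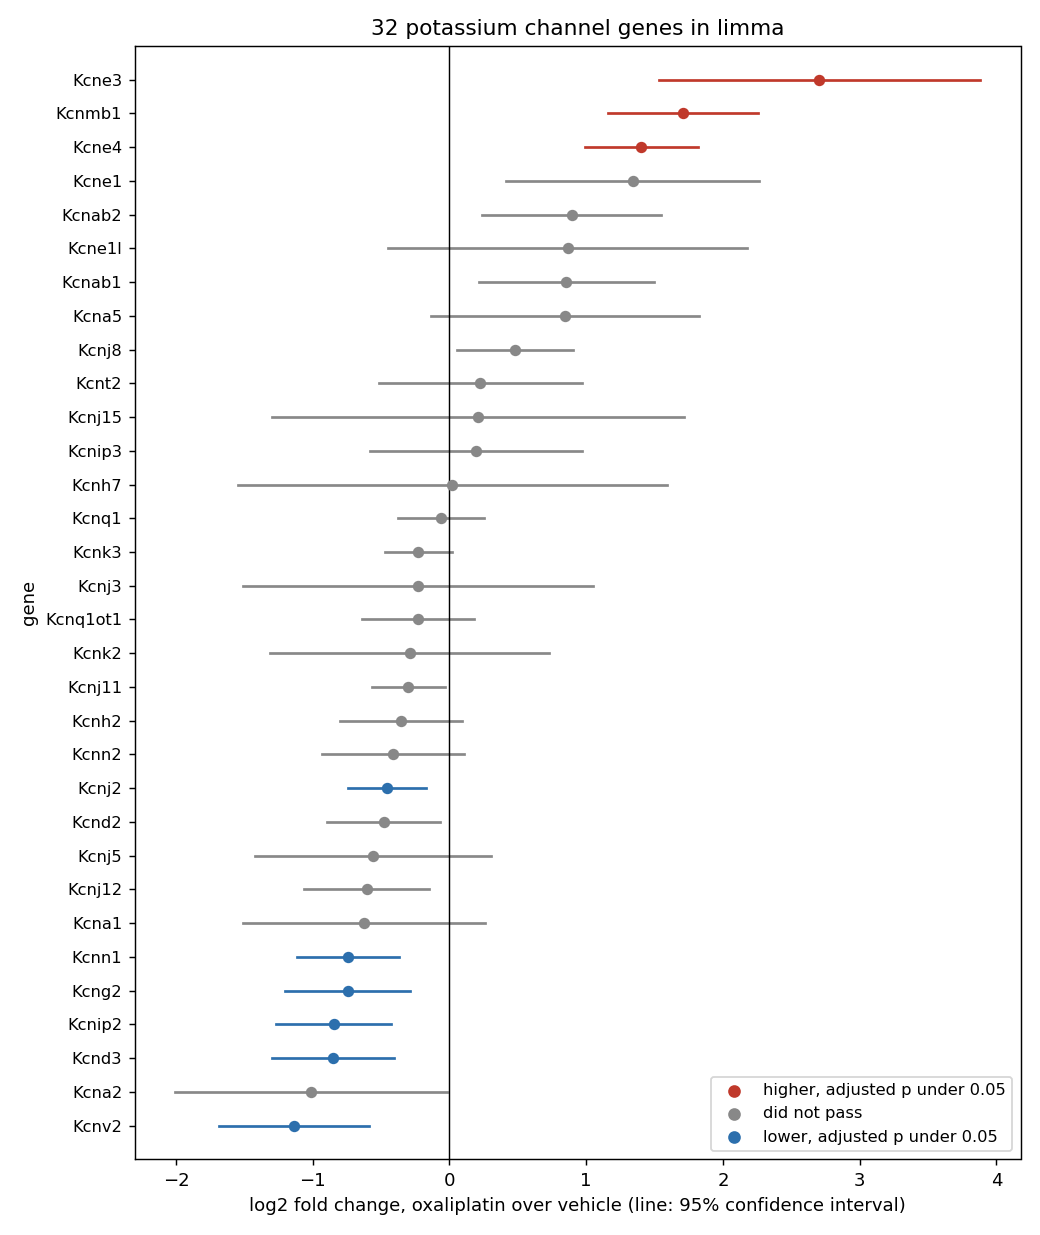
Log2 fold change of oxaliplatin over vehicle on the horizontal axis for 32 Kcn genes, with 95% confidence intervals from limma (5 oxaliplatin and 4 vehicle samples). Kcne3, Kcnmb1 and Kcne4 lie highest among the called genes at 2.71, 1.71 and 1.40, and Kcnv2 lies lowest at -1.14. Kcne3 reached 40.6 normalized counts in oxaliplatin samples alone, so its difference follows in part from which genes the table holds.

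Promoter windows are shown for 4 of the called genes, Kcnip2 and Kcnd3 of the Ito group that fell and Kcne4 and Kcnmb1 that rose, so that their base composition can be compared. Each runs from 250 bases before to 50 bases after the RefSeq transcript start in build GRCm38.p6, 5′ to 3′ on the gene's strand, with every CG pair in capitals.
Kcnip2: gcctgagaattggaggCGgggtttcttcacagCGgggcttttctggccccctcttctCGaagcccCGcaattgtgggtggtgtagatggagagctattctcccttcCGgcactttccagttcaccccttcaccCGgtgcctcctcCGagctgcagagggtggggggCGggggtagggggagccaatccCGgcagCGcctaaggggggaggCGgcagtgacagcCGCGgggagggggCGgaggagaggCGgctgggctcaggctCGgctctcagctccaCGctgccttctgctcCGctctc
Kcnd3: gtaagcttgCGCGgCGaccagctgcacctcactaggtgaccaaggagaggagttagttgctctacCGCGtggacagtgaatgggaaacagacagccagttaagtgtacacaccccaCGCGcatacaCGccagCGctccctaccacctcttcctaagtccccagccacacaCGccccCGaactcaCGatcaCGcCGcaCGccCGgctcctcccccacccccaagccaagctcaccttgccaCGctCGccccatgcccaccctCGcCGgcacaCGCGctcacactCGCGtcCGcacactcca
Kcne4: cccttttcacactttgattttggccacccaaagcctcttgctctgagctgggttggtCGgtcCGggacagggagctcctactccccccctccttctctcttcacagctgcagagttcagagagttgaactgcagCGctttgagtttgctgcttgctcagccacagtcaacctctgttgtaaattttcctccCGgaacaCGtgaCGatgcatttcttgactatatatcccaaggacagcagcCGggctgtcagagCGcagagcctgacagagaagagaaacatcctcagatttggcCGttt
Kcnmb1: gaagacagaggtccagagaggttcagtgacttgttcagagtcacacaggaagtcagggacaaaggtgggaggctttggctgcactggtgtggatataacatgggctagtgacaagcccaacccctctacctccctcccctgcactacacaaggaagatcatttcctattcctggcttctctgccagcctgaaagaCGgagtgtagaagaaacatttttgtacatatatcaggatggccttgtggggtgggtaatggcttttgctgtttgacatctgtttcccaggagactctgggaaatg
The windows lie at chr19:45816014-45816313 on the minus strand for Kcnip2, and on the plus strand at chr3:105451640-105451939 for Kcnd3, chr1:78816661-78816960 for Kcne4 and chr11:33962763-33963062 for Kcnmb1. CG was searched as the letters CG, which read the same on both strands. Kcnip2 held 18 such pairs and Kcnd3 25, and 29.7% and 18.4% of all 32851 RefSeq windows held as many or more. Kcne4 held 9 pairs, a number that 45.8% of windows reached, and Kcnmb1 held 1, which 94.6% reached. GC content was 67% for Kcnip2, 64% for Kcnd3, 52.7% for Kcne4 and 49.7% for Kcnmb1, against a median of 52.7% and 7 CG pairs over all windows. RefSeq windows were matched for 24 of the 34 members, with a median of 10 CG pairs. The composition is a description and bears on no cause of the changes.

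Of the 3 measured Ito genes, Kcnip2 and Kcnd3 fell and Kcnd2 did not pass. Kcnip2 encodes KChIP2, the calcium-binding subunit that brings Kv4 pores to the membrane, and lies on chromosome 19 from 45791839 to 45816061 in GENCODE M21 on GRCm38. Its level was 1647, 1247, 1395, 758 and 1497 normalized counts in oxaliplatin samples 1 to 5, against 1942, 2215, 2508 and 2489.9 in vehicle samples 1 to 4. All 5 oxaliplatin values lay below all 4 vehicle values, with oxaliplatin sample 4 the lowest (log2 fold change -0.85 with a standard error of 0.19, limma adjusted p = 0.0129). It fell to 1309 ± 340.4 normalized counts in oxaliplatin samples, against 2289 ± 267 in vehicle samples (SD, n = 5 and n = 4). The fold change was -0.61 without the samples of atrial score above 1 (adjusted p = 0.0193) and -0.67 without those above 2 (adjusted p = 0.00873). The cardiomyocyte marker score was also lower in every oxaliplatin sample than in any vehicle sample, and its part in the lower Kcnip2, Kcnd3 and Kcnj2 values cannot be told apart from the treatment.

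Kcnd3 and Kcnd2 encode Kv4.3 and Kv4.2, the Ito pores, and Kcnd2 is the main one in mouse ventricle. Kcnd3 had 76.5, 95.1, 67.4, 68.3 and 49.3 normalized counts in oxaliplatin samples 1 to 5 and 134, 117, 120.5 and 136 in vehicle samples 1 to 4. The groups did not overlap, and the highest oxaliplatin value was that of sample 2 (log2 fold change -0.85 with a standard error of 0.21, limma adjusted p = 0.0157). Kcnd3 lies on chromosome 3 from 105452330 to 105674002, and 165 bases of its exons overlap the antisense gene Kcnd3os, whose reads cannot be told apart without a stated strand setting. Kcnd2 had 177, 247, 315, 256 and 385 normalized counts in oxaliplatin samples 1 to 5 and 363, 399.9, 355 and 377 in vehicle samples 1 to 4. Of its oxaliplatin values 4 lay below every vehicle value, while oxaliplatin sample 5 lay within the vehicle range (log2 fold change -0.48 with a standard error of 0.19, limma adjusted p = 0.111). Without that sample Kcnd2 was at -0.61 and passed (adjusted p = 0.0430). Leaving out the sample that lies apart makes a pass more likely, so passes of this kind, here and below, are descriptions only. Kcnd2 passed in 2 of 23 alternative fits. Kcna4, the slow Ito pore, was not analysed here.

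IK1 was represented by Kcnj2 and Kcnj12, which encode Kir2.1 and Kir2.2. Kcnj2, on chromosome 11 from 111066164 to 111076821, had 319, 444, 496, 411 and 445 normalized counts in oxaliplatin samples 1 to 5 and 581, 576, 560.4 and 587 in vehicle samples 1 to 4. It fell, every oxaliplatin value being under the lowest vehicle value, and the vehicle samples lay close together (log2 fold change -0.46 with a standard error of 0.13, limma adjusted p = 0.0345). The call was lost without any 1 of oxaliplatin samples 4 and 5 (adjusted p = 0.0721 and 0.0532) or vehicle samples 1 to 4 (adjusted p = 0.0753, 0.0825, 0.0776 and 0.0631). It was also lost without the samples of atrial score above 1 or above 2 (adjusted p = 0.0574 and 0.118), where the fold change was -0.61 and -0.48. After rescaling to equal non-mitochondrial totals Kcnj2 was at -0.37 (adjusted p = 0.196), and limma without trend or robust moderation gave adjusted p = 0.0540. Kcnj12 had 81.3, 86.3, 64.8, 93.5 and 56.5 normalized counts in oxaliplatin samples 1 to 5 and 102, 96.1, 128 and 139 in vehicle samples 1 to 4. Its groups did not overlap either, but it did not pass (log2 fold change -0.60 with a standard error of 0.21, limma adjusted p = 0.0735). Kcnj4, a further Kir2 gene, was not analysed here.

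IKr and KATP genes did not pass. Kcnh2, the pore gene of IKr, had 179, 336, 229, 286 and 257 normalized counts in oxaliplatin samples 1 to 5 and 298, 255, 308 and 466 in vehicle samples 1 to 4. Values of the groups interleaved, with oxaliplatin sample 1 the lowest and vehicle sample 4 the highest (log2 fold change -0.36, 95% interval -0.80 to 0.090, limma adjusted p = 0.277). Its proposed partner Kcne2 was not analysed here.

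Kcnj11 and Kcnj8 encode the KATP pores Kir6.2 and Kir6.1. Kir6.2 is the pore of muscle cell KATP channels in heart, and Kir6.1 is typical of vascular smooth muscle and pericytes. Kcnj8 had 2849.8, 1394, 2843, 2784 and 2730.5 normalized counts in oxaliplatin samples 1 to 5 and 1554, 1931, 1736 and 1788 in vehicle samples 1 to 4. Oxaliplatin samples 1, 3, 4 and 5 lay above all vehicle samples, while oxaliplatin sample 2 lay below them all (log2 fold change 0.48 with a standard error of 0.20, limma adjusted p = 0.123). Without oxaliplatin sample 2 the value was 0.68 (adjusted p = 7.93e-04), and it also passed without the samples of atrial score above 1 or above 2 (adjusted p = 0.0163 and 0.0102), which both leave that sample out. Kcnj8 passed in 5 of 23 alternative fits. Kcnj11 had 2287, 1633, 1492, 1803 and 1869 normalized counts in oxaliplatin samples 1 to 5 and 2103, 2141, 2238 and 2386 in vehicle samples 1 to 4. Of its oxaliplatin values 4 lay under the lowest vehicle value, and oxaliplatin sample 1 lay within the vehicle range (log2 fold change -0.30 with a standard error of 0.12, limma adjusted p = 0.127). Without that sample Kcnj11 passed at -0.39 (adjusted p = 0.0273), and it did so in 2 of 23 alternative fits.

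Pericyte and endothelial markers stood higher in oxaliplatin samples in part. Of 5 pericyte markers Pdgfrb (log2 fold change 0.62) and Vtn (0.59) were higher, and the summed level of the list was 8219 to 16199 normalized counts in oxaliplatin samples and 7768 to 9727 in vehicle samples. Of 7 endothelial markers Pecam1 (1.33) and Fabp4 (0.96) were higher, with a summed level of 35488 to 73419 in oxaliplatin samples and 27763 to 35698 in vehicle samples. The endothelial score did not overlap, at -0.16 to 0.50 in oxaliplatin samples and -0.37 to -0.29 in vehicle samples. Like the cardiomyocyte score it divides the samples as the groups do, so it cannot be told apart from the treatment. Oxaliplatin sample 2 had the lowest pericyte and endothelial scores of its group, -0.26 and -0.16, but the highest smooth muscle score, 1.09. All markers of the pericyte and endothelial lists were measured above 0. The part of any of these scores in the Kcnj8 values was not tested.

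The measured two-pore genes were Kcnk3 and Kcnk2, and neither passed. Kcnk3, which encodes TASK-1, had the highest level per kilobase of exon of all 34 members, in normalized counts per kilobase 1199 in oxaliplatin samples and 1402 in vehicle samples. Its counts were 5709, 4646, 4429.7, 4445 and 4609.8 in oxaliplatin samples 1 to 5 and 5303, 5024, 5905 and 6059 in vehicle samples 1 to 4. Oxaliplatin samples 2 to 5 lay below all vehicle samples, and oxaliplatin sample 1 lay among them (log2 fold change -0.23 with a standard error of 0.11, limma adjusted p = 0.210). Kcnk2, which encodes the stretch-sensitive TREK-1, was low, with 10.8, 22.0, 15.8, 26.8 and 46.6 normalized counts in oxaliplatin samples 1 to 5 and 15.5, 23.5, 47.3 and 29.2 in vehicle samples 1 to 4. The groups covered about the same range (log2 fold change -0.29, 95% interval -1.31 to 0.73, limma adjusted p = 0.729).

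**Figure D2:**
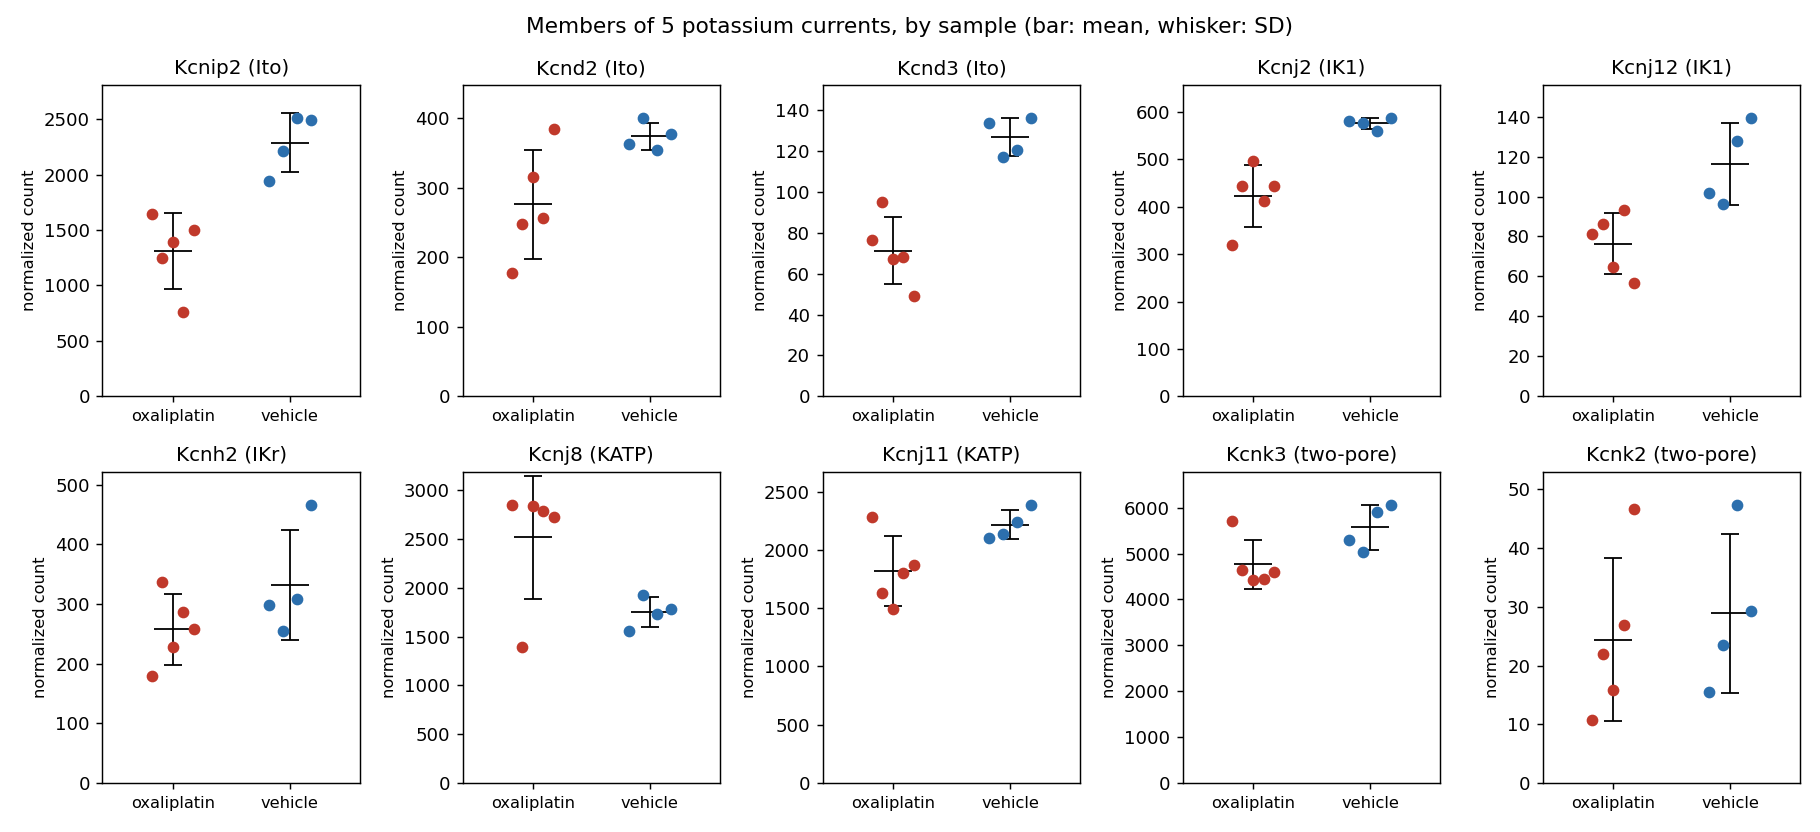
Normalized counts of the 10 measured genes of Ito, IK1, IKr, KATP and two-pore current, with 1 point per sample, oxaliplatin (n = 5) left of vehicle (n = 4), the bar at the mean and the whisker at 1 SD. Kcnip2, Kcnd3, Kcnj2 and Kcnj12 show groups that do not overlap, and 1 oxaliplatin point of Kcnj8 lies below the vehicle points.

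The members higher with oxaliplatin were auxiliary subunits, which change the gating of pores encoded elsewhere. Kcne4 encodes a single-span subunit that inhibits the Kcnq1 channel, and lies on chromosome 1 from 78816758 to 78820028. It had 393, 336, 376, 609.6 and 349.7 normalized counts in oxaliplatin samples 1 to 5 and 128, 182, 131 and 172 in vehicle samples 1 to 4. The lowest oxaliplatin value was well above the highest vehicle value, and oxaliplatin sample 4 was the highest (log2 fold change 1.40 with a standard error of 0.19, limma adjusted p = 9.26e-04). Kcne3, a relative that keeps Kcnq1 channels open in epithelia, had 47.8, 22.9, 45.5, 34.1 and 85.2 normalized counts in oxaliplatin samples 1 to 5 and 2.39, 3.35, 9.68 and 12.1 in vehicle samples 1 to 4. Vehicle values all lay under 40.6, the level that each gene of the table reached somewhere, so the difference of 2.71 on the log2 scale is given as a description with no test. Without the samples of atrial score above 1, Kcne4 was at 1.20 and Kcne3 at 2.94 (adjusted p = 0.00491 for Kcne4), and without those above 2 at 1.21 and 2.78 (adjusted p = 0.00162 for Kcne4). The remaining gene of this kind, Kcne1l, did not pass.

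Kcnmb1 encodes the beta 1 subunit of the large-conductance calcium-activated channel and is typical of vascular smooth muscle. On chromosome 11 from 33963013 to 33973641, it had 260.5, 170.0, 285, 272 and 231 normalized counts in oxaliplatin samples 1 to 5 and 70.5, 92.7, 41.9 and 102 in vehicle samples 1 to 4. Each oxaliplatin value exceeded each vehicle value (log2 fold change 1.71 with a standard error of 0.25, limma adjusted p = 0.00140). The fold change was 1.73 without the samples of atrial score above 1 and 1.80 without those above 2 (adjusted p = 0.00825 and 0.00237). Kcnma1, the pore gene, was not analysed here. Of the 5 smooth muscle markers 0 were called in either direction, with a median log2 fold change of 0.60 and Acta2 at 0.98 (adjusted p = 0.146). Their summed level was 11043 to 29759 normalized counts in oxaliplatin samples and 7105 to 12919 in vehicle samples, and all 5 were measured above 0. Oxaliplatin sample 2 had the highest smooth muscle score and the lowest Kcnmb1 value of its group. The part of these markers in the Kcnmb1 values was not tested.

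The other members that fell were silent and small-conductance subunits. Kcnv2, which encodes the silent subunit Kv8.2, had 46.6, 88.1, 71.0, 65.8 and 94.2 normalized counts in oxaliplatin samples 1 to 5 and 190.0, 199, 102 and 160.3 in vehicle samples 1 to 4. The groups did not overlap (log2 fold change -1.14 with a standard error of 0.25, limma adjusted p = 0.0106). Kcng2, which encodes another silent subunit, had 284, 238, 302, 291 and 419.6 normalized counts in oxaliplatin samples 1 to 5 and 451, 353, 549.6 and 750.3 in vehicle samples 1 to 4. Oxaliplatin sample 5 lay within the vehicle range, and the other oxaliplatin samples lay below it (log2 fold change -0.74 with a standard error of 0.21, limma adjusted p = 0.0328). Silent subunits form no channel alone and join other Kv pores. Kcnn1, which encodes the small-conductance calcium-activated channel SK1, had 119, 109, 101, 93.5 and 136 normalized counts in oxaliplatin samples 1 to 5 and 153, 179.8, 217 and 202 in vehicle samples 1 to 4, with no overlap (log2 fold change -0.74 with a standard error of 0.17, limma adjusted p = 0.0131).

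Some of these calls rested on few samples. Kcng2 was lost without oxaliplatin samples 1, 2, 3 or 4 (adjusted p = 0.0526, 0.0505, 0.0632 and 0.0688) and without vehicle samples 3 or 4 (adjusted p = 0.0977 and 0.0868). After rescaling to equal non-mitochondrial totals Kcng2 was at -0.66 (adjusted p = 0.0933), and without trend or robust moderation its adjusted p was 0.0648, and it was 0.0535 with array weights. Kcnn1 was lost without vehicle sample 3 (adjusted p = 0.0544). Without the samples of atrial score above 1, Kcnv2, Kcng2 and Kcnn1 had adjusted p = 0.0607, 0.204 and 0.0983, with fold changes of -1.15, -0.61 and -0.64. Without those above 2 the adjusted p were 0.0418, 0.118 and 0.0432. Kcnd3 was at -1.01 and -0.96 in these fits (adjusted p = 0.0438 and 0.0330). Exons of Kcng2 and Kcnn1 overlap genes of the opposite strand by 272 and 132 bases, and those of Kcne3 by 9.

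Among delayed rectifier genes 0 of 4 Kv members passed. Kcna5 encodes Kv1.5, which carries a slowly inactivating current in mouse ventricle and the ultra-rapid current in human atrium. It had 787, 181, 493, 479.5 and 723 normalized counts in oxaliplatin samples 1 to 5 and 218, 296, 174 and 437 in vehicle samples 1 to 4. Oxaliplatin sample 2 was at the vehicle level and the other oxaliplatin samples lay above all vehicle samples (log2 fold change 0.84 with a standard error of 0.44, limma adjusted p = 0.238). Without oxaliplatin sample 2 the value was 1.19 (adjusted p = 0.0122). Kcna5 also passed without the samples of atrial score above 1 or 2 (adjusted p = 0.0134 and 0.0322), which both leave that sample out. In all it passed in 3 of 23 alternative fits. Kcna1 and Kcna2 were low, at 13.1 to 39.4 in oxaliplatin samples and 23.7 to 79.7 in vehicle samples for Kcna1 and 7.17 to 34.3 in oxaliplatin samples and 26.9 to 69.6 in vehicle samples for Kcna2.

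The beta subunits Kcnab1 and Kcnab2, which bind Kv1 pores inside the cell, were low and neither passed. Kcnab2 had 50.2, 36.1, 63.1, 59.3 and 37.7 normalized counts in oxaliplatin samples 1 to 5 and 35.9, 23.5, 20.4 and 24.2 in vehicle samples 1 to 4. The groups did not overlap (log2 fold change 0.89 with a standard error of 0.30, limma adjusted p = 0.0662). Vehicle values all lay under 40.6, so the Kcnab2 difference follows in part from which genes the table holds. Kcnab1 had 46.6, 115, 67.4, 113 and 62.8 normalized counts in oxaliplatin samples 1 to 5 and 35.9, 52.5, 35.5 and 45.4 in vehicle samples 1 to 4. Its groups overlapped (log2 fold change 0.85 with a standard error of 0.30, limma adjusted p = 0.0717), and it passed without oxaliplatin sample 1 (adjusted p = 0.0260). Kcnab1 passed in 2 of 23 alternative fits. Without the samples of atrial score above 1 the fold change of Kcnab1 was 0.29 (adjusted p = 0.670).

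IKs is carried by Kcnq1 with the subunit Kcne1, and is small in adult mouse ventricle. Kcne1 had 901, 174, 416, 638 and 359.6 normalized counts in oxaliplatin samples 1 to 5 and 228, 178, 166 and 124 in vehicle samples 1 to 4. Oxaliplatin sample 2 lay at the vehicle level, below 2 of the vehicle values, and the other 4 oxaliplatin samples lay above all vehicle samples (log2 fold change 1.34 with a standard error of 0.41, limma adjusted p = 0.0583). Without oxaliplatin sample 2 Kcne1 passed, at 1.67 (adjusted p = 0.00192). It also passed without the samples of atrial score above 1 or 2 (adjusted p = 0.00342 and 0.00401), which both leave that sample out. Kcne1 passed in 6 of 23 alternative fits. Kcnq1 averaged 690.4 ± 146 normalized counts in oxaliplatin samples and 708 ± 26.1 in vehicle samples (SD, n = 5 and n = 4; log2 fold change -0.061, 95% interval -0.37 to 0.25, limma adjusted p = 0.818). Its sign flipped after rescaling to equal non-mitochondrial totals, at 0.028. Exons of Kcnq1 overlap the antisense RNA Kcnq1ot1 by 121 bases. Kcnq1ot1 silences neighbouring imprinted genes and averaged 775 ± 166 normalized counts in oxaliplatin samples and 912 ± 236 in vehicle samples (SD, n = 5 and n = 4; log2 fold change -0.23 with a standard error of 0.19, limma adjusted p = 0.456).

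**Figure D3:**
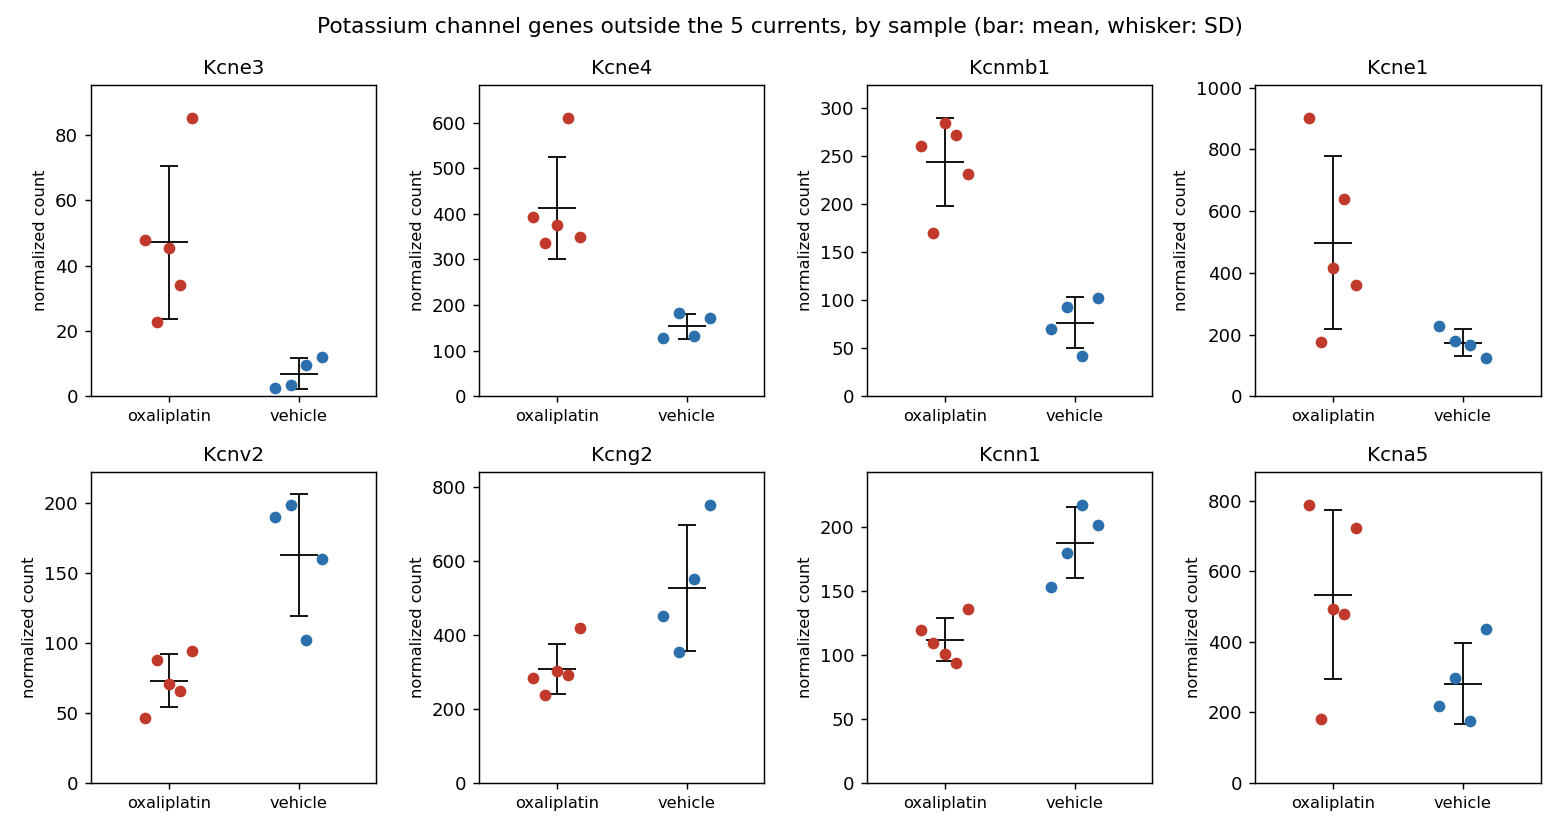
Normalized counts of Kcn genes outside the 5 currents, with 1 point per sample, oxaliplatin (n = 5) left of vehicle (n = 4), the bar at the mean and the whisker at 1 SD. Kcne3, Kcne4 and Kcnmb1 lie higher in every oxaliplatin sample than in any vehicle sample, and Kcnv2 and Kcnn1 lie lower.

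The acetylcholine-gated channel of atria and nodal cells is built from Kcnj3 and Kcnj5, which encode GIRK1 and GIRK4. Kcnj3 had 527, 2954, 894, 1663 and 534 normalized counts in oxaliplatin samples 1 to 5 and 2038, 842, 1116 and 1164 in vehicle samples 1 to 4. Kcnj5 had 644, 2644, 1213, 1159.8 and 726 normalized counts in oxaliplatin samples 1 to 5 and 2204, 1669, 1303 and 1529 in vehicle samples 1 to 4. Both were highest in oxaliplatin sample 2, which also had the highest atrial score, and next highest in vehicle sample 1. Oxaliplatin sample 4 had a higher atrial score than vehicle sample 1, 3.31 against 2.93, but its Kcnj5 value lay below every vehicle value. Neither gene passed (log2 fold change -0.23 and -0.56, limma adjusted p = 0.826 and 0.377). Without the samples of atrial score above 1 both were lower, at -0.96 and -1.12 (adjusted p = 0.00442 and 9.08e-04), and without those above 2 at -0.71 and -0.85 (adjusted p = 0.0482 and 0.0226). In a fit that adjusted for atrial score Kcnj5 was at -0.71 and passed (adjusted p = 0.0233), while Kcnj3 was at -0.45 and did not (adjusted p = 0.226). Without oxaliplatin sample 2 Kcnj5 was at -0.87 (adjusted p = 0.0216), and it passed in 4 of 23 alternative fits. The sign of the Kcnj3 value turned without oxaliplatin sample 1, oxaliplatin sample 5 or vehicle sample 1, at 0.018, 0.014 and 0.018. Exons of Kcnj3 overlap an opposite-strand RNA gene, Gm26794, by 1621 bases.

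**Figure D4:**
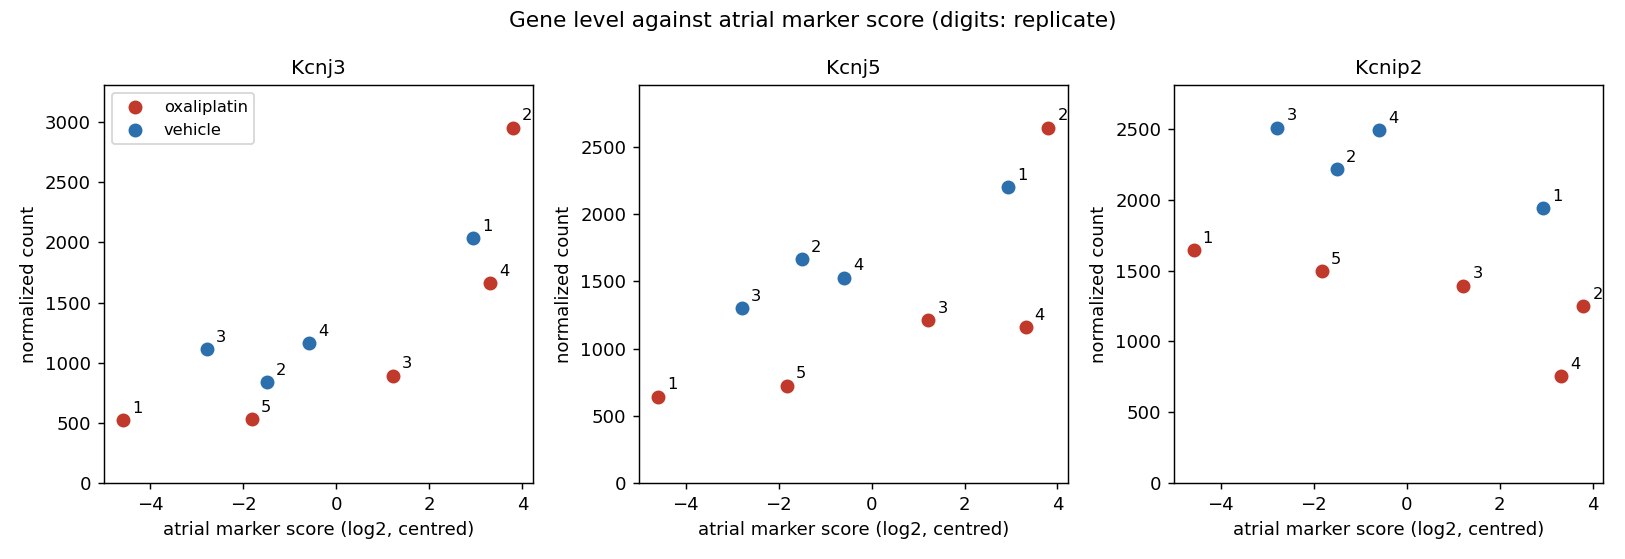
Normalized counts of Kcn genes on the vertical axis against the atrial marker score of each sample on the horizontal axis, in log2 units, with 5 oxaliplatin and 4 vehicle points per panel. Kcnj3 and Kcnj5 are highest in oxaliplatin sample 2 at a score of 3.80. Kcnj5 in oxaliplatin sample 4, at a score of 3.31, lies below every vehicle point.

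The members left were low or undirected. Kcnj15, an inward rectifier of epithelia, lay at 11.9 to 191 in oxaliplatin samples and 20.4 to 64.5 in vehicle samples, with oxaliplatin sample 4 the highest. Kcnip3, a relative of Kcnip2, lay at 29.9 to 43.1 in oxaliplatin samples and 16.7 to 57.5 in vehicle samples, and Kcnh7, a relative of Kcnh2 known from neurons, at 3.61 to 61.2 in oxaliplatin samples and 9.18 to 36.5 in vehicle samples. Fold changes of Kcnj15, Kcnip3 and Kcnh7 were 0.21, 0.19 and 0.021 (limma adjusted p = 0.875, 0.764 and 0.990), and those of Kcnip3 and Kcnh7 were negative after quantile normalization, at -0.036 and -0.29. Kcnn2 (SK2), Kcnt2 (a sodium-activated pore) and Kcne1l had limma adjusted p = 0.283, 0.708 and 0.377, with fold changes of -0.41, 0.23 and 0.86. Means over all samples were under 50 normalized counts for 9 of the 34 members.

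In normalized counts per kilobase of exon, which allow levels of different genes to be set side by side, Kcnk3 was followed by Kcnj8 at 989 in oxaliplatin samples and 688 in vehicle samples and Kcnj11 at 494 in oxaliplatin samples and 603 in vehicle samples. Kcnip2 came next at 376 in oxaliplatin samples and 658 in vehicle samples. Far lower were the Kv4 pores, with Kcnd2 at 53.6 in oxaliplatin samples and 72.6 in vehicle samples and Kcnd3 at 7.44 in oxaliplatin samples and 13.2 in vehicle samples. Kcnj2 stood at 77.7 in oxaliplatin samples and 106 in vehicle samples and Kcnj12 at 27.8 in oxaliplatin samples and 42.3 in vehicle samples. Kcnh7 had the lowest level, 1.85 in oxaliplatin samples and 1.35 in vehicle samples. Kcnj8 lay above Kcnj11 in each oxaliplatin sample and in each vehicle sample, at 547 to 1118 for Kcnj8 and 406 to 622 for Kcnj11 in oxaliplatin samples and 609.8 to 758 for Kcnj8 and 572 to 649 for Kcnj11 in vehicle samples.

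Ratios of subunits within a sample do not depend on how that sample was scaled. The log2 ratio of Kcne1 to Kcnq1 was 0.40, -1.54, -0.75, -0.016 and -1.35 in oxaliplatin samples 1 to 5, against -1.67, -1.93, -2.06 and -2.55 in vehicle samples 1 to 4. The groups did not overlap (difference 1.40; two-sided exact permutation p = 0.0159, the smallest the design allows; adjusted p = 0.0794 over 5 ratios). The ratio of Kcnj8 to Kcnj11 was 0.32, -0.23, 0.93, 0.63 and 0.55 in oxaliplatin samples 1 to 5, against -0.44, -0.15, -0.37 and -0.42 in vehicle samples 1 to 4. Oxaliplatin sample 2 was the only one of its group within the vehicle range (difference 0.78; exact permutation p = 0.0317, adjusted p = 0.0794). Ratios of Kcnip2 to Kcnd2, Kcnj12 to Kcnj2 and Kcnab1 to Kcna5 differed by -0.36, -0.14 and 0.011 (exact permutation, adjusted p = 0.503, 0.714 and 1). The Kcnab1 to Kcna5 value turned to -0.034 with a pseudocount of 5.

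**Figure D5:**
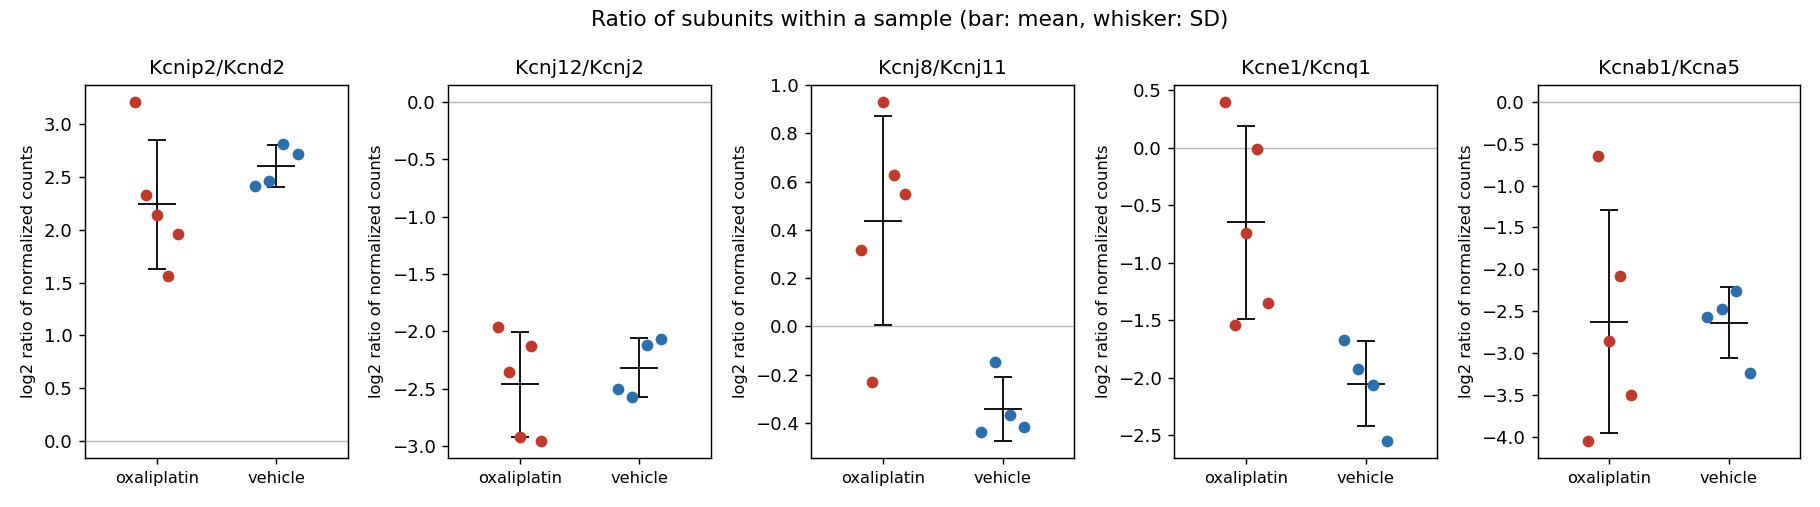
Log2 ratio of normalized counts of paired subunits within each sample, with oxaliplatin (n = 5) left of vehicle (n = 4), the bar at the mean and the whisker at 1 SD. The oxaliplatin points of Kcne1 to Kcnq1 lie between -1.54 and 0.40, above the vehicle points at -2.55 to -1.67.

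Partners of potassium channels outside the Kcn names were listed as 22 genes, of which 16 were tested, 2 rose, 1 fell and the median was 0.049. Over all genes tested 9.23% were higher and 5.03% lower, and the partner counts are too small to be set apart from those shares. Rnf207, a ubiquitin ligase known from human cells and rabbit heart muscle cells to act on the Kcnh2 channel, had 1017, 1783, 1503, 1150.0 and 1231 normalized counts in oxaliplatin samples 1 to 5 and 2452, 2335, 1996 and 2478 in vehicle samples 1 to 4. It fell with no overlap between groups (log2 fold change -0.82 with a standard error of 0.15, limma adjusted p = 0.00471). Cttn, the actin-binding scaffold cortactin, which binds Kv channels, had 2287, 1773, 2008, 2499 and 2167 normalized counts in oxaliplatin samples 1 to 5 and 1589.5, 1524, 1294 and 1494 in vehicle samples 1 to 4. It rose with no overlap (log2 fold change 0.54 with a standard error of 0.12, limma adjusted p = 0.0100). Lrrc52, an auxiliary subunit of calcium-activated channels, had 375, 69.6, 99.9, 123 and 173 normalized counts in oxaliplatin samples 1 to 5 and 32.3, 43.6, 85.0 and 37.3 in vehicle samples 1 to 4. It rose with overlapping groups, and oxaliplatin sample 1 stood highest (log2 fold change 1.59 with a standard error of 0.45, limma adjusted p = 0.0351). The Lrrc52 call was lost without any 1 of oxaliplatin samples 4 and 5 (adjusted p = 0.0672 and 0.0739) or vehicle samples 1, 2 and 4 (adjusted p = 0.0925, 0.0907 and 0.0915).

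The sulfonylurea receptors that complete KATP channels did not pass. Abcc8, which encodes SUR1, the receptor of mouse atrial KATP channels, averaged 1309 ± 281 normalized counts in oxaliplatin samples and 1094 ± 200.5 in vehicle samples (SD, n = 5 and n = 4; log2 fold change 0.25 with a standard error of 0.16, limma adjusted p = 0.340). Abcc9, which encodes SUR2, averaged 2249 ± 591 normalized counts in oxaliplatin samples and 2884 ± 460.0 in vehicle samples (SD, n = 5 and n = 4; log2 fold change -0.38 with a standard error of 0.17, limma adjusted p = 0.161). Without the samples of atrial score above 1 Abcc9 was at -0.70 and passed (adjusted p = 0.0147).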

How the data were processed

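Heart RNA of 5 oxaliplatin and 4 vehicle samples was compared, grouped by the titles and treatments in the labels. Per gene the deposited file gives a signal, named normalized counts per the file headers. Per the submitters' processing notes, STAR 2.5.1a, Partek and DESeq2 were used, named without role or order. A SMARTer kit made the libraries, per the labels' protocols. Sources used here do not give genome build, annotation or strand. No gene stayed under 40.6 in all samples, so the table lacks low genes, and reads per sample are not known.

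The deposited values were taken to log2(normalized count + 1), a scale that understates changes of low genes, and oxaliplatin was set against vehicle by limma 3.58.1 (R 4.3.3; mean-variance trend, robust moderation). A minimum mean of 10 left 13788 genes and all 34 members. The test was two-sided, Benjamini-Hochberg adjusted over those genes, with a threshold of 0.05. Steps were tested on simulated data. Subunit ratios were tested by exact permutation over samples in Python 3.11.15. Coordinates and exon lengths are GENCODE M21 on GRCm38, matched by symbol for 34 of 34 members, and promoters are RefSeq on GRCm38.p6. Rules named each gene of the 5 currents, each called member and the 2 of highest mean per remaining class; Kcna1, Kcna2, Kcnn2, Kcnt2 and Kcne1l were added after their values were seen. Counts and medians cover all 34 members, of which 2 are not reported here one by one. Members, lists and tests were chosen with earlier results of these data known. Leaving out samples of atrial score above 2 was chosen after seeing the data. Whether samples are separate animals is not in the labels, and p-values therefore reflect only sample-to-sample spread, which may be technical.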

Additional observations from a re-analysis of the deposited data

Results flagged for a closer look

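Of 68 groups of members' values, 5 oxaliplatin or 4 vehicle samples each, 4 held a sample farther from the rest than Dixon's limit, where chance gives about 1 in 20. Kcnj8 was 1394 normalized counts in oxaliplatin sample 2, the lowest of its group. Kcne4 was 609.6 in oxaliplatin sample 4 and Kcnk3 was 5709 in oxaliplatin sample 1, each the highest of its group. Kcna1 was 13.1 in oxaliplatin sample 1, the lowest of its group.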

How the results depend on the processing

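In 616 fits of 27 named members over 23 alternatives, 510 kept direction and side of the threshold, 42 lost a call, 30 gained one and 34 changed sign, 0 of them for called members; the causes were not tested. Calls held in 22 alternatives for Kcne4 and Kcnmb1, 21 for Kcnip2, 20 for Kcnd3 and Kcnv2, 19 for Kcnn1 and 10 for Kcng2 and Kcnj2. Kcne3 is left out of this list, since it reached 40.6 normalized counts in oxaliplatin samples alone. Main counts were 1966 genes (1272 higher, 694 lower), 3 higher and 6 lower members, and 2 higher and 1 lower partners.

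With array weights 3541 genes passed (1975 higher, 1566 lower) and 7 members were higher. With the atrial covariate 1646 genes were higher and 1067 lower, with 5 members higher and 8 lower. With the erythroid covariate 775 genes passed (616 higher, 159 lower), with 2 members, 0 of them lower, and 0 partners in either direction. With the cardiomyocyte covariate 5 genes passed (2 higher, 3 lower), with 0 members and 0 partners in either direction. Rescaling to equal non-mitochondrial totals left 388 lower genes. Partners that were higher numbered 1 after quantile normalization, without trend or robust moderation and with the replicate block. Without samples of atrial score above 1 or above 2, 6 members were higher, beside 1058 and 1110 of all genes, and above 1 left 2 partners lower.

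Leaving out 1 sample at a time gave 1110 to 2378 genes (789 to 1505 higher, 321 to 873 lower), 6 to 13 members (3 to 7 higher, 3 to 6 lower), and 2 to 4 partners (1 to 2 higher, 1 to 2 lower). Ratio differences then ran from -0.48 to 0.37 for Kcnab1 to Kcna5, 1.14 to 1.63 for Kcne1 to Kcnq1, -0.61 to -0.20 for Kcnip2 to Kcnd2, -0.27 to -0.021 for Kcnj12 to Kcnj2 and 0.66 to 0.95 for Kcnj8 to Kcnj11. Kcnab1 to Kcna5 was -1.12 and -0.81 without samples of atrial score above 1 and 2, and -0.034 with a pseudocount of 5.

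Signs turned for uncalled genes. Kcnh7 was -0.011 with pseudocount 0.1, -0.29 after quantile normalization and with the atrial covariate, -0.54 and -2.33 with the erythroid and cardiomyocyte covariates, and -1.01 and -0.68 without samples of atrial score above 1 and 2. Kcnip3 was -0.036 after quantile normalization, and -0.20 and -0.095 without those samples. Kcnj15 was -0.075 with the atrial and -1.44 with the cardiomyocyte covariate, and -0.98 and -0.63 without those samples. Kcnq1 was 0.028 after rescaling, 0.12 and 0.15 with the erythroid and cardiomyocyte covariates, and 0.17 and 0.11 without those samples. With the cardiomyocyte covariate Kcnj11 was 0.063, Kcnk2 0.42, Kcnk3 0.089 and Abcc8 -0.071. Leaving out 1 sample, values lay between -0.40 and 0.54 for Kcnh7, -0.096 and 0.48 for Kcnip3, -0.34 and 0.64 for Kcnj15, -0.60 and 0.018 for Kcnj3, and -0.17 and 0.041 for Kcnq1.

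Deviations from the group means correlated at -0.27, -0.064, -0.093 and 0.25 between same-numbered samples, and oxaliplatin sample 1 correlated best with vehicle sample 3, at 0.42. With so few samples per group these values cannot tell whether same-numbered samples share more than a number. The fit with the replicate block, where oxaliplatin sample 5 has no partner, called 1413 genes (925 higher, 488 lower), with 8 members (3 higher, 5 lower) and 2 partners (1 lower). Kcnd3 and Kcnj2 had adjusted p = 0.0686 in it, Kcnd2 passed (adjusted p = 0.0482) and Kcnj3 was 0.014. Oxaliplatin sample 5 forms a block alone, so fold changes in this fit equal those of the fit without that sample. The Kcnd2 and Kcnj3 values are therefore no separate result. Reads per sample are unknown, so the depth limit of the low members could not be set.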

Other observations

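Summed over all 34 members there were 19317, 19618, 18194, 19022 and 18291 normalized counts in oxaliplatin samples 1 to 5, and 20753, 19296, 20112 and 22474 in vehicle samples 1 to 4. The groups overlapped, with vehicle sample 4 the highest and oxaliplatin sample 3 the lowest.

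Chamber markers of the ventricle did not move one way. Of 4 such genes the transcription factor Irx4 (log2 fold change -0.94, limma adjusted p = 0.0114) and the light chain gene Myl2 (-0.70, limma adjusted p = 0.0337) were lower with oxaliplatin, and the transcription factor Hey2 was higher (0.65, limma adjusted p = 0.0394). Irx3, a transcription factor known in mouse for conduction gene control, did not pass (-0.31, limma adjusted p = 0.501).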
